A study of Mus musculus with 143 samples.

Results

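Fully grown mouse oocytes that lacked DIS3, a ribonuclease of the nuclear RNA exosome, were followed from prophase arrest to the ovulated egg. The comparison was made between 16 single metaphase II (MII) eggs and 15 single germinal vesicle (GV) oocytes, all labelled as Dis3 conditional knockout (dis3cKO), which gave 31 of the 143 samples of the series. Poly(A) RNA of each cell was captured on oligo-dT beads together with a fixed amount of synthetic ERCC RNA, an external standard that was added to each lysate. GV oocytes came from ovaries, and MII eggs were collected from the oviducts of superovulated females. Stage and origin therefore cannot be told apart in the MII against GV comparison of either genotype. The labels describe the mutants as made by CRISPR/Cas9, and they name neither the driver of the deletion, nor the strain or age, nor which oocytes shared a mother. GV and MII eggs of control females (8 libraries each) served as the reference for normal maturation, and 16 Dis3 cKO and 8 control oocytes kept in culture for 3 h stood between these stages. GV oocyte 9 of the Dis3 cKO numbering was not analysed here. Since mothers are not named, p-values measure the spread between oocytes, which may be smaller than that between females.

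As background, the RNA exosome trims and degrades RNA from its 3′ end, and DIS3 and EXOSC10 are its catalytic subunits in the nucleus. A fully grown oocyte is transcriptionally silent and lives on stored maternal mRNA. During meiotic maturation, many of these messages lose their poly(A) tails through the CCR4-NOT deadenylase, recruited by the adaptor BTG4, and are destroyed, while others are polyadenylated and translated. A poly(A) library therefore reports both the abundance of an mRNA and whether its tail can still be captured, and the measurements below cannot tell fewer molecules from shorter tails. Nor can an oocyte's gain in share be read as new synthesis, because shares are relative to all poly(A) RNA in the cell.

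Library depth was 5984082 to 10310183 gene counts in Dis3 cKO GV oocytes and 6246715 to 11265332 in Dis3 cKO MII eggs. Levels are given as CPM (counts per 1000000 counts, scaled with edgeR's TMM factors) unless they are said to be per ERCC count. Oocyte markers were abundant in both groups: Bmp15, an oocyte-secreted growth factor, had 2681 ± 1027 CPM in GV oocytes and 4533 ± 858 CPM in MII eggs (SD, n = 15 and 16). Of 19 markers of the surrounding cumulus and granulosa cells, the summed level was 98.2 to 339 CPM in GV oocytes and 78.9 to 130 CPM in MII eggs. Ptx3, a cumulus gene, was at 0 in all 31 libraries, and Foxl2 and Inha, granulosa genes, were at 0 in all 16 MII eggs, whereas Inha reached up to 73.0 CPM in single GV oocytes. The sum in the eggs thus came from other markers of the list, so these zeros do not show that somatic RNA was absent. Of the 15 markers tested, 9 fell from GV to MII and 1 rose, where 38.5% of all genes fell and 24.8% rose. The difference from the control change was negative in 4 and positive in 0, where it was negative for 3.88% of all genes and positive for 9.28%, and the part of these RNAs in other results was not tested. Libraries that stood apart from their group were MII eggs 7, 11 and 15 and GV oocytes 6 and 8. Their median correlations with the other libraries of the group were 0.907, 0.929, 0.790, 0.884 and 0.857. The counts of the MII against GV changes and of their difference between genotypes were repeated without them, and the counts of the 3 h steps were not.

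Dis3 itself checked the labels. In the 15 Dis3 cKO GV oocytes Dis3 lay between 0.683 and 5.85 CPM (median 2.82), against 9.60 to 17.9 CPM (median 12.7) in the 8 control GV oocytes. In the 16 Dis3 cKO MII eggs it lay between 0 and 2.37 CPM (median 0.57), against 2.67 to 20.9 CPM (median 10.3) in control MII eggs. The genotypes did not overlap at either stage. Within the knockout the residual Dis3 signal fell by 1.88 on the log2 scale (SE 0.353, edgeR adjusted p = 3.6e-06), and in controls its change was -0.44 (adjusted p = 0.40). The difference between these changes was -1.45 (adjusted p = 0.073), and without eggs 7 and 11 it was -1.63 (adjusted p = 0.046). Exosc10, the other nuclear ribonuclease of the complex, rose in share from 83.6 ± 11.4 to 133 ± 37.2 CPM (log2 0.67, SE 0.124, adjusted p = 3.1e-06), and per ERCC count the sign turned to -0.51.

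Poly(A) RNA per cell fell from GV to MII without DIS3. Gene counts per ERCC count were 108 ± 30.8 in GV oocytes (lowest 77.5, median 104, highest 208, n = 15) and 55.5 ± 15.3 in MII eggs (14.4, 53.3 and 81.0, n = 16). All 16 eggs lay below the GV mean, and only egg 7 exceeded the lowest GV oocyte. The mean log2 difference was -1.0, or 0.501 of the GV value (2-sided permutation test, 100000 resamples, p = 1e-05, the smallest they can give, adjusted p = 3e-05 over 6 tests). Egg 15 had the lowest ratio, with 585335 ERCC counts where the other eggs had 106665 to 230440. In controls the ratio went from 137 ± 16.2 to 46.0 ± 3.43, a log2 difference of -1.57. The fall was 0.58 smaller on the log2 scale in the knockout (genotype labels permuted within stage, p = 0.0158, adjusted p = 0.0189). The knockout mean was below the control mean at GV and above it at MII. At 3 h the ratio was 143 ± 29.3 in the knockout and 161 ± 28.1 in controls, a higher mean than at GV in each genotype.

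**Figure D1:**
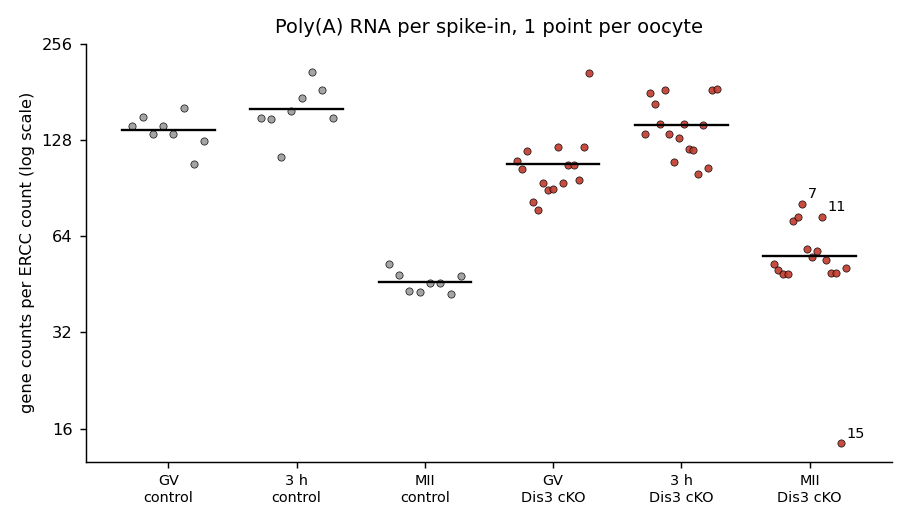
Gene counts per ERCC count in each poly(A) library, on a log axis. Points are single oocytes and bars are group means; numbers mark Dis3 cKO eggs 7, 11 and 15. All 16 Dis3 cKO eggs lie below the Dis3 cKO GV mean of 108, and egg 15 lies lowest at 14.4.

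The composition of the remaining mRNA changed for most genes. Of 17389 genes tested, 11007 changed in share between Dis3 cKO MII and GV (63.3%, edgeR quasi-likelihood test, Benjamini-Hochberg adjusted p below 0.05): 4313 rose (24.8%) and 6694 fell (38.5%). The CPM ranges of the 16 eggs and the 15 GV oocytes did not overlap at all for 625 genes that were higher (3.59%) and 1107 that were lower (6.37%) in the eggs. The median log2 change over all genes was -0.26. Scaled to ERCC counts instead, the median moved to -1.50, and 227 genes rose (1.31%) and 14311 fell (82.3%). A rise in share below therefore does not mean more RNA per cell, and the list members that also rose per ERCC count are named.

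The 10 named mRNAs that fell most included 2 of cytosolic ribosomal proteins, 1 of a mitochondrial ribosomal protein, 2 of respiratory subunits and a cyclin. Ccnd2, which encodes a D-type cyclin, ranged from 5.61 to 83.2 CPM in GV oocytes (median 32.6) and from 0 to 0.918 CPM in eggs (median 0.0539). No egg reached the lowest GV oocyte, and 8 of 16 eggs were at 0 (log2 -7.26, SE 0.681, adjusted p = 2.2e-15). Rps15, a protein of the small ribosomal subunit, went from a range of 12.1 to 35.8 CPM (median 22.1) to a range of 0 to 3.85 CPM (median 0.433), a log2 change of -5.09 (SE 0.291). Rpl26, of the large subunit, fell from 33.7 ± 6.87 to 1.22 ± 0.535 CPM (log2 -4.78). The mitochondrial ribosomal protein Mrpl12 fell from 126 ± 19.4 to 4.10 ± 1.97 CPM with the smallest error of the 10 (log2 -4.93, SE 0.156, adjusted p = 5.4e-40). Atp5o, a subunit of the mitochondrial ATP synthase, fell by 5.02 on the log2 scale from a mean of 89.1 to one of 2.68 CPM, and Ndufs8, of respiratory complex I, from 63.6 ± 12.8 to 2.39 ± 1.5 CPM (log2 -4.72). The remaining members of the 10 were Tsacc (log2 -4.90), Saysd1 (-4.83), Hint3 (-4.75) and Naxe (-4.63). In every one of the 10, ERCC scaling made the fall larger, from -5.77 in Hint3 and Naxe to -8.52 in Ccnd2.

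Among the 10 named mRNAs that rose most was a cell-cycle activator. Cdc20, the activator of the anaphase-promoting complex, rose from 43.4 to 135 CPM in GV oocytes (median 78.7) to 224 to 594 CPM in eggs (median 383), with no overlap (log2 2.26, SE 0.125, adjusted p = 1.4e-26). Obox2, an oocyte homeobox gene, went from 202 to 799 CPM (median 385) to 1016 to 2851 CPM (median 2175; log2 2.12, SE 0.175). Manba, which encodes lysosomal beta-mannosidase, was nearly absent at GV (0 to 1.99 CPM) and at 118 to 363 CPM in all 16 eggs (log2 7.98). At 3 h it was above 20 CPM in oocytes 9 to 16 and below 3 CPM in oocytes 1 to 8 of the knockout, and in controls above 20 CPM in oocytes 1 to 4 and below 3 CPM in oocytes 5 to 8. In controls it rose by 8.43. Tcl1b1 rose from 759 ± 225 to 3765 ± 1464 CPM (log2 2.31), Tcl1b3 from 166 ± 33.8 to 788 ± 264 CPM (2.25), Omt2b from 687 ± 164 to 3242 ± 1129 CPM (2.24) and Omt2a from 454 ± 88.7 to 2111 ± 812 CPM (2.22). These are pairs of close relatives between which reads could have been split, so their values are uncertain. Cyth1 (log2 2.61), AU022751 (2.25) and Tmem128 (2.12) completed the 10. Per ERCC count all 10 remained positive, from 0.90 in Omt2a and Tcl1b3 to 6.68 in Manba, and Manba alone kept non-overlapping groups at the level required.

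Genes of the machinery that removes maternal mRNA moved in both directions. Of 19 deadenylation genes, 8 rose and 5 fell in share, where over all genes 24.8% rose and 38.5% fell, the background for each list that follows. Btg4, the CCR4-NOT adaptor of oocytes, went from 1165 to 2050 CPM in GV oocytes (median 1708) to 3364 to 6396 CPM in eggs (median 5277), with eggs 7 and 11 lowest (log2 1.62, SE 0.0808, adjusted p = 5.6e-29). The catalytic subunits Cnot8 (1.85) and Cnot7 (0.93) and the deadenylase gene Pan2 (1.42) also rose, whereas the scaffold Cnot1 (-0.59) and Cnot10 (-1.16) fell. Per ERCC count only Btg4 (0.34) and Cnot8 (0.59) of the 19 rose and 16 fell, Cnot7 among them (-0.34), where over all genes 1.31% rose and 82.3% fell per ERCC count, the background for the per-ERCC counts of the knockout's MII-GV change that follow. Of 15 decapping and uridylation genes, 6 rose and 3 fell. Dcp1a, the activator of the decapping enzyme, rose by 0.95, and the terminal uridylyltransferase Tut4 (-1.12) and the helicase Ddx6 (-1.21) fell. Per ERCC count 0 of these 15 rose and 13 fell. Of 21 genes of the exosome and its cofactors, 9 rose and 7 fell. The core subunits Exosc5 (-3.49), Exosc6 (-2.62) and Exosc4 (-2.40) fell without overlap, while Exosc9 (1.25), Exosc3 (1.04) and the cofactor Mphosph6 (1.89) rose. Per ERCC count Mphosph6 was the 1 exosome gene that rose (0.58), and 17 fell.

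Among 24 genes of mRNA storage and cytoplasmic polyadenylation, 8 rose and 8 fell. The storage proteins Zar1l (-2.65) and Ybx2 (-1.47), known to bind maternal mRNA, fell without overlap. Cpeb1, the polyadenylation factor that acts early in maturation, went from 658 ± 87.3 to 380 ± 122 CPM (-0.79), and Dazl, the RNA-binding protein that drives later translation, rose by 1.01. Tent2, a cytoplasmic poly(A) polymerase, rose by 1.38, and per ERCC count none of the 24 rose and 19 fell.

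Cell-cycle regulators of the metaphase arrest moved in both directions in share. Of 29 genes, 16 rose and 8 fell, with a median of 0.32 against -0.26 over all genes. Ccnb1, the cyclin partner of CDK1, went from 117 to 493 CPM (median 398) to 682 to 1283 CPM (median 1021), with no overlap (log2 1.44). Cks1b (1.71), Cks2 (1.62), Pttg1, or securin (1.33), Mad2l1 (1.3) and Ccnb2 (1.01) rose likewise. Cdk1 mRNA moved the other way, from 100 to 149 CPM (median 121) to 9.16 to 58.3 CPM (median 14.1; log2 -2.71), eggs 7 and 11 being the highest. Mos, the kinase that activates the cytostatic MAP kinase pathway, rose by 0.91. It was at 2590 CPM or more in 15 eggs and at 9.62 CPM in egg 15. Per ERCC count Cdc20 (0.98) and Cks1b (0.40) rose and 18 of the 29 fell. Of 22 spindle and cohesion genes, 12 rose and 6 fell: the meiotic kinase Aurkc rose by 1.62, and Tubb4b (-2.51) and Tacc3 (-1.09) fell, all without overlap. Per ERCC count Aurkc (0.41) was the 1 spindle gene that rose, and 19 fell. In the cAMP pathway that keeps prophase arrest, 8 of 12 genes rose and 0 fell in share, among them the receptor Gpr3 (0.63). Per ERCC count 10 of these 12 fell, near the 82.3% over all genes, and 0 rose.

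Oocyte-specific groups moved in both directions. The zona pellucida genes Zp3 (-2.0), Zp1 (-1.56) and Zp2 (-1.51) and the sperm receptor Izumo1r (-1.49) fell, and the cortical granule protease Astl (0.73) and Oosp1 (1.21) rose, which gave 3 rises and 5 falls of 9. Of 8 oocyte-secreted factors and their partners, 4 rose and 4 fell: Fgf8 (-4.12) and the gap junction gene Gja4 (-2.62) fell without overlap, and Gdf9 (0.87) and Bmp15 (0.76) rose. In the subcortical maternal complex and Nlrp family, 5 of 16 rose and 7 fell, led by Khdc3 (-2.41) and Ooep (-2.10). Of 15 oocyte transcription factors, 9 rose and 3 fell; Figla, needed for zona gene expression, fell from 51.2 ± 14.6 to 6.30 ± 6.57 CPM (-3.01). Chromatin genes rose in 21 of 33 and fell in 6, with the oocyte linker histone H1foo at 1.60 and the nucleoplasmin Npm2 at -1.36. Per ERCC count 0 of 9, 0 of 8, 0 of 16, 3 of 15 and 1 of 33 rose in these lists, and 7, 6, 15, 10 and 29 fell. Those that rose were Obox2 (1.01), Obox5 (0.31), H1foo (0.41) and Tcl1 (0.72), a co-activator of AKT kinase that the transcription factor list holds although it is not itself such a factor.

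Most messages for ribosomes, respiration and protein breakdown fell. Of 77 cytosolic ribosomal protein genes tested, 70 fell and 2 rose (median -2.47), against 38.5% and 24.8% over all genes. Of 78 mitochondrial ribosomal protein genes, 65 fell and 6 rose (median -1.66). Of 75 nuclear-encoded genes of oxidative phosphorylation, 64 fell and 5 rose (median -1.98), and of 32 proteasome subunits 21 fell and 7 rose (median -1.21). Exceptions kept or gained share: Rplp2 (0.73) and Rpl22 (0.39) among ribosomal proteins, Cox8a (1.07) and Atp5b (1.01) in respiration, and Psmd3 (1.94) and Psmd1 (1.61) in the proteasome regulatory particle. Per ERCC count 77 of 77, 76 of 78, 72 of 75 and 28 of 32 fell, and Psmd1 and Psmd3 were the 2 genes that rose. Summed over the list, nuclear oxidative phosphorylation mRNA went from 5826 ± 610 CPM in GV oocytes to 2699 ± 816 CPM in eggs. The sum of cytosolic ribosomal protein mRNA went from 2481 ± 331 to 785 ± 196 CPM, and that of mitochondrial ribosomal proteins from 4723 ± 522 to 2111 ± 204 CPM. The proteasome sum was 5304 ± 532 and 5057 ± 430 CPM, so that its share of the library was similar although 21 of its 32 genes fell. Without the 5 libraries that stood apart, 72, 65, 66 and 21 genes of these lists fell.

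**Figure D2:**
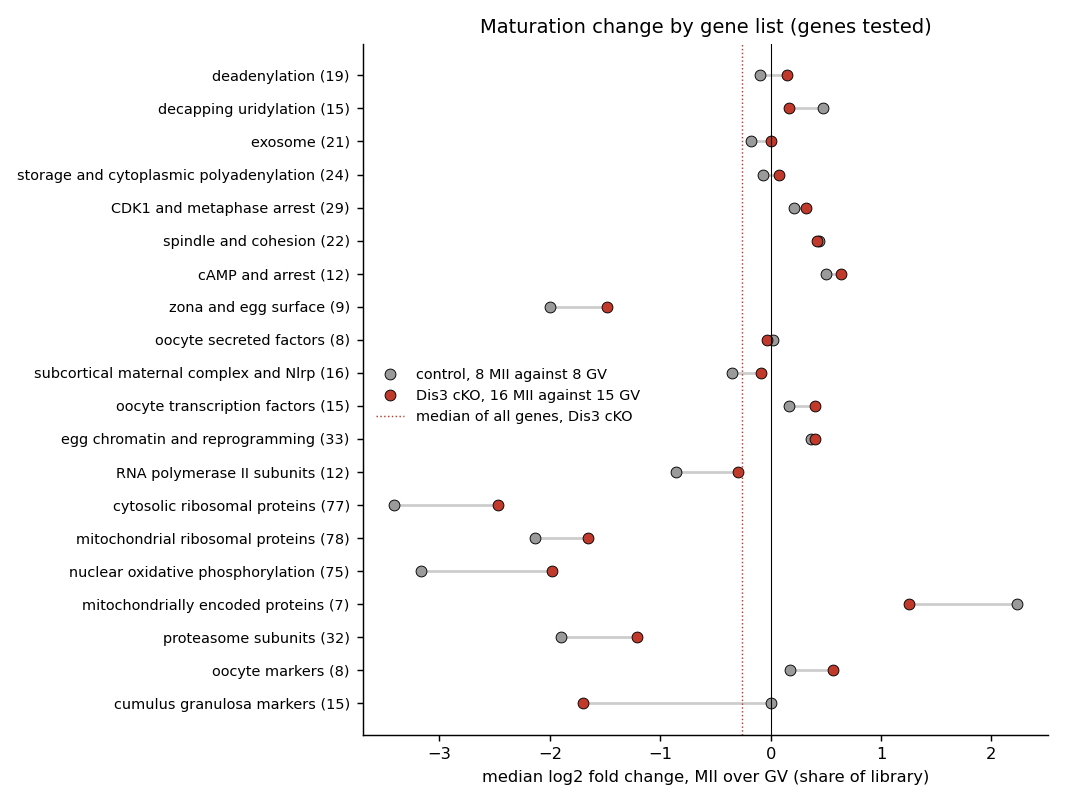
Median log2 fold change (MII over GV, as a share of the library) of each gene list, with the number of genes tested in brackets. Red points are Dis3 cKO and grey points controls, and the dotted line is the Dis3 cKO median of all 17389 genes (-0.26). Ribosomal, respiratory and proteasome lists lie to the left in both genotypes and nearer to 0 in Dis3 cKO.

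RNA encoded by the mitochondrial genome rose in share, and per ERCC count its log2 change was -0.16 (p = 0.388). The share of gene counts rose from 0.389 ± 0.171% (0.169 to 0.775%) to 0.747 ± 0.480% (0.269 to 2.25%), with wide overlap (log2 0.84, permutation p = 0.0026, adjusted p = 0.0042). In title numbers 1 to 8 alone the change was 0.67 (permutation p = 0.0673). In the knockout's 3 h oocytes the mean share was lower than at GV, at 0.229 ± 0.0557%. There 6 of the 7 genes that passed the filter had fallen, where 9.88% of all genes had. From GV to MII all 7 of the 13 genes that passed the filter rose, mt-Nd4 (1.66) and mt-Nd2 (1.5) most. Per ERCC count 0 rose and 1 fell, and the summed level was 398 ± 141 and 357 ± 122 counts per 1000 ERCC counts. In controls the share was 0.151 ± 0.0385% in GV oocytes and 0.546 ± 0.138% in eggs, so that the knockout mean was higher at both stages. The control share rose by 1.85, and the knockout's rise was smaller by 1.01 (p = 0.0267, adjusted p = 0.0267); with group medians it was smaller by 0.73 (p = 0.172), and without eggs 7 and 11 by 0.84 (p = 0.0582). The share held by long noncoding RNA genes (typed lncRNA or antisense RNA) fell from 2.94 ± 0.288% to 2.39 ± 0.242% (log2 -0.30, p = 1e-05, adjusted p = 3e-05), and all 16 eggs lay below the GV mean. In control oocytes it was 2.26 ± 0.184% and 2.33 ± 0.270% (log2 0.04, exact permutation p = 0.556), and the difference between genotypes was -0.35 (p = 0.0028, adjusted p = 0.0042), which turned to 0.23 per ERCC count (p = 0.319). Of 1395 such genes tested, 579 fell and 190 rose (median -0.58, against -0.26 over all genes). In controls 542 fell and 161 rose (median -0.66). The difference was positive for 121 and negative for 35 of the 1395, near or below the 9.28% and 3.88% over all genes.

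Most genes that changed in control maturation changed the same way without DIS3, and those that fell did so by less. In controls, 10179 genes changed (58.5%), 3950 up (22.7%) and 6229 down (35.8%), on libraries that are not shared with the knockout. Of the 6229 that fell in controls, 4998 fell in the knockout, which is 80.2% of the control list and 74.7% of the knockout list. Of the 3950 that rose, 3117 rose in the knockout (78.9% and 72.3%). Across 17389 genes the changes had a Pearson r of 0.744 and a Spearman rho of 0.784, given as a description, since genes are not replicates. Per ERCC count 15275 genes changed in controls (87.8%), 58 up (0.334%) and 15217 down (87.5%). The genes that fell in controls had a median log2 change of -1.99 there and -1.26 in the knockout. Those that fell in the knockout had -1.43 there and -1.61 in controls, so the control fall was larger whichever genotype chose the list.

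**Figure D3:**
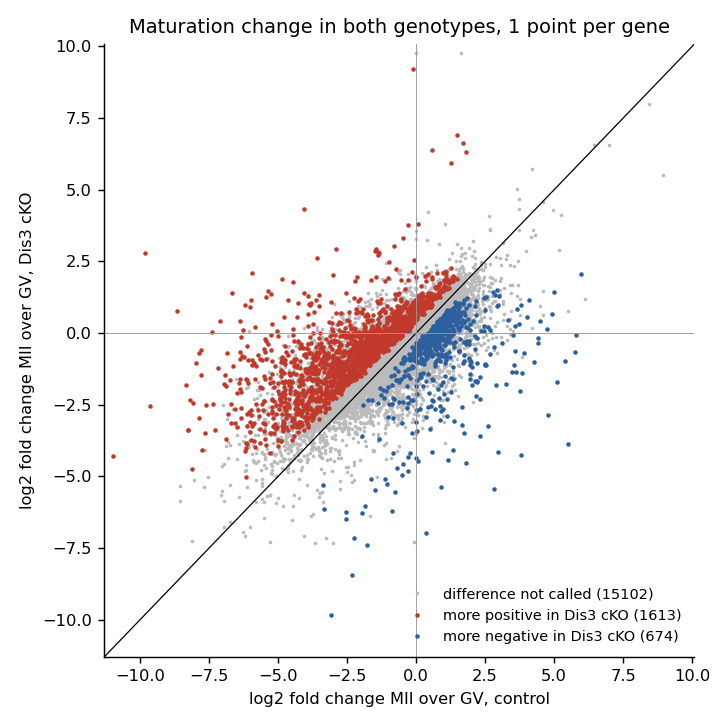
Log2 fold change of MII over GV in controls (x) and in Dis3 cKO (y), 1 point per gene for 17389 genes, with the line of equal change. Red genes changed more positively in Dis3 cKO (1613) and blue genes more negatively (674); red points gather above the line where control changes are negative.

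The difference itself was tested gene by gene. The MII-to-GV change differed between genotypes for 2287 genes (13.2%): it was more positive in the knockout for 1613 (9.28%) and more negative for 674 (3.88%). Of the 1613, 1082 had a negative fold change in both genotypes, 389 were negative in controls and positive in the knockout, and 142 were positive in both. Per ERCC count the split moved from 70.5% to 97.7% positive, with 5237 genes called (30.1%), 5116 more positive (29.4%) and 121 more negative (0.696%), and the median difference went from 0.07 to 0.68. With counts summed over blocks of 4 consecutive title numbers, which leaves 2 sums per control group and 4 per knockout group, 335 genes were called, 296 of them positive, and 325 of the 335 were among the 2287 with the same sign. The count was 2031 without eggs 7 and 11, and 2526 without all 5 libraries that stood apart.

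Among the larger lists, respiratory chain mRNAs held the highest share of positive differences. The difference was positive for 46 of 75 oxidative phosphorylation genes and negative for 0 (median difference 1.17, against 0.07 over all genes), where the background share of positive calls was 9.28%. It was positive for 32 of 77 cytosolic ribosomal proteins (1 negative), 22 of 78 mitochondrial ribosomal proteins (0 negative), 9 of 32 proteasome subunits (1 negative) and 6 of 12 RNA polymerase II subunits (0 negative). Per ERCC count these counts were 59, 48, 61, 25 and 9, with 0 negative in each, where 29.4% of all genes were positive. Without eggs 7 and 11 they were 37, 25, 17, 10 and 6, where 1393 of 17358 genes were positive. With summed counts they were 20, 14, 5, 2 and 3, where 296 of 22403 genes were positive. Ndufa3, a complex I subunit, was at 12.9 to 26.0 CPM in Dis3 cKO GV oocytes (median 20.2) and at 1.87 to 33.2 CPM in eggs (median 5.21). In controls it went from 15.6 to 20 CPM (median 18.1) to 0.354 to 1.72 CPM (median 0.577), so that every knockout egg exceeded every control egg (difference 3.13, and 2.59 without eggs 7 and 11, adjusted p = 1.2e-06). Rpl41, a ribosomal protein, ended at 10.5 to 139 CPM (median 35.0) in knockout eggs and at 1.84 to 17.9 CPM (median 4.74) in control eggs from similar GV levels (difference 2.92). Cox7c, of cytochrome oxidase, rested largely on 2 cells: eggs 7 and 11 had 16.0 and 14.3 CPM, the median egg had 0.702 CPM, and the difference went from 3.27 to 1.75 without them (adjusted p = 0.017).

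Messages of the maternal complex, zona, chromatin and polymerase lists also had positive differences, some of which depended on a few libraries. The difference was positive for 4 of 16 genes of the subcortical maternal complex and Nlrp list: Khdc3 (2.51), Tle6 (1.3), Ooep (1.11) and Nlrp5 (0.92). It was negative for 0 of the 16, where 9.28% of all genes were positive and 3.88% negative. Without eggs 7 and 11 it was positive for 3, where 1393 of 17358 genes were positive. Khdc3 was then at 1.70, Nlrp5 at 0.89 and Tle6 at 0.88, and Ooep lost its call (0.53, adjusted p = 0.15). With summed counts 0 of the 16 were called, where 296 of 22403 genes were positive and 39 negative. The difference was positive for 5 of 9 zona and egg surface genes and negative for 1, against 9.28% and 3.88% over all genes. This positive count fell to 1 without eggs 7 and 11, where 1393 of 17358 genes were positive. It fell to 2 without control GV oocyte 1, where 1487 of 17647 genes were positive. Zp3, which encodes a structural protein of the zona, had 25.8 to 691 CPM in knockout eggs (median 148), with 691 and 602 CPM in eggs 7 and 11, and 70.3 to 149 CPM (median 98.1) in control eggs. Its GV level was lower in the knockout (864 ± 198 against 1298 ± 200 CPM), and the difference of 1.61 was 1.12 without these eggs. Dnmt1, the maintenance DNA methyltransferase, went from 1271 ± 340 to 1143 ± 389 CPM in the knockout and from 2047 ± 268 to 892 ± 134 CPM in controls (difference 1.04). Its genotype means lay further apart at GV than at MII. Polr2j, a subunit of RNA polymerase II, rose by 0.48 in the knockout and changed by -1.03 in controls (difference 1.5, and 1.48 without eggs 7 and 11).

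A smaller number of messages rose in controls and less or not at all in the knockout. Ezh2, the histone H3K27 methyltransferase, went from 376 ± 36.2 to 504 ± 106 CPM in the knockout and from 435 ± 70.3 to 1120 ± 173 CPM in controls (difference -0.94, and -1.0 with summed counts, adjusted p = 0.024). Summed counts called 39 negative differences over all genes, where the main fit called 674. Dcp2, the decapping enzyme, went from 309 ± 81.0 to 272 ± 78.3 CPM and from 276 ± 47.4 to 443 ± 48.7 CPM in controls (-0.87). The deadenylase gene Cnot6l (-0.47), the RNA-binding genes Dazl (-0.68) and Lsm14a (-0.57), and Mastl (-0.43), the kinase that restrains the phosphatase opposing CDK1, had negative differences too. Their lists held positive differences as well, where 9.28% of all genes were positive and 3.88% negative. Of 19 deadenylation genes 2 were positive, Tob1 (0.89) and Cnot3 (0.57), and 2 negative. Of 15 decapping and uridylation genes 0 were positive and 2 negative. Of 24 storage and polyadenylation genes 2 were positive, Igf2bp3 (0.81) and Cpeb1 (0.67), and Dazl was the 1 negative. Of 29 metaphase arrest genes 5 were positive, Cdc20 (1.0) and Cdc25b (0.98) most, and 2 negative. Of 33 chromatin genes 4 were positive, among them Dnmt1, and Ezh2 was the 1 negative. Btg4 did not pass in this test (-0.07, SE 0.134, adjusted p = 0.78). Per ERCC count none of the 6 with negative differences passed: the values were -0.41 in Ezh2 (adjusted p = 0.14), -0.20 in Dcp2, -0.02 in Dazl, 0.00 in Lsm14a, 0.11 in Cnot6l and 0.21 in Mastl, the last 3 with the sign gone or turned, where the median gene was at 0.68.

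The genes with the largest differences in either direction were read at the level of single oocytes. Gstt2, a glutathione transferase, went from 58.8 to 121 CPM (median 80.7) to 4.90 to 19.1 CPM (median 8.73) in the knockout and from 57.2 to 166 CPM (median 91.7) to 0 to 2.24 CPM (median 0.949) in controls. All 16 knockout eggs exceeded all 8 control eggs (difference 3.55, SE 0.355, adjusted p = 2.0e-11, and 2.9e-05 with summed counts). Hint3 ended at 0 to 2.95 CPM (median 0.830) and at 0 to 0.427 CPM (median 0.0486; difference 3.37, adjusted p = 8.9e-06), where the knockout and control eggs overlapped. Mt1, a metallothionein, fell from 35.6 to 253 CPM (median 95.9) to 11 to 50.2 CPM (median 33.0) in the knockout (log2 -1.83, adjusted p = 0.00017), and from 0.104 to 205 CPM (median 168) to 0 to 1.65 CPM in controls (difference 6.50, adjusted p = 8.2e-07). In controls at 3 h it was above 20 CPM in oocytes 5 to 8 and below 3 CPM in oocytes 1 to 4. Thrsp was at 0 in 11 of 15 knockout GV oocytes and at 0 to 11.2 CPM in control GV oocytes, and its medians in knockout and control eggs were 15.4 and 20.1 CPM (difference 5.45). Eggs 1 to 4 of the knockout had at most 0.459 CPM of it. Fmo6 (difference 3.90, adjusted p = 0.033) lost its call without eggs 7 and 11 (0.058).

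St3gal5, the ganglioside GM3 synthase, had a negative difference. It went from 40.4 to 71.7 CPM (median 50.7) to 6.26 to 75.8 CPM (median 33.0) in the knockout, and from 23.6 to 55.4 CPM (median 29.0) to 103 to 166 CPM (median 146) in controls. Knockout eggs 5 to 11 and 15 were at 6.26 to 24.2 CPM and the other 8 at 41.8 to 75.8 CPM, so the median lies in a gap between them. Every control egg exceeded every knockout egg (difference -2.69, SE 0.319, adjusted p = 3.8e-09). Frk, a tyrosine kinase, rose from a median of 7.95 to 32.6 CPM in controls and had medians of 8.73 and 9.74 CPM in the knockout (-2.18). Rassf4 rose from a median of 0.828 to 49.4 CPM in controls and had medians of 7.23 and 1.74 CPM in the knockout (-6.45). Ptprd (-2.38) and Flrt3 (-2.33) had adjusted p of 0.035 and 0.038, and of 0.16 and 0.095 per ERCC count. Flrt3 lost its call without GV oocytes 6 and 8 (0.15) and without control GV oocyte 1 (0.061). With summed counts St3gal5 remained called (adjusted p = 0.0093), and Frk (0.055), Rassf4 (0.057), Thrsp (0.079), Ptprd (0.34) and Flrt3 (0.31) did not.

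**Figure D4:**
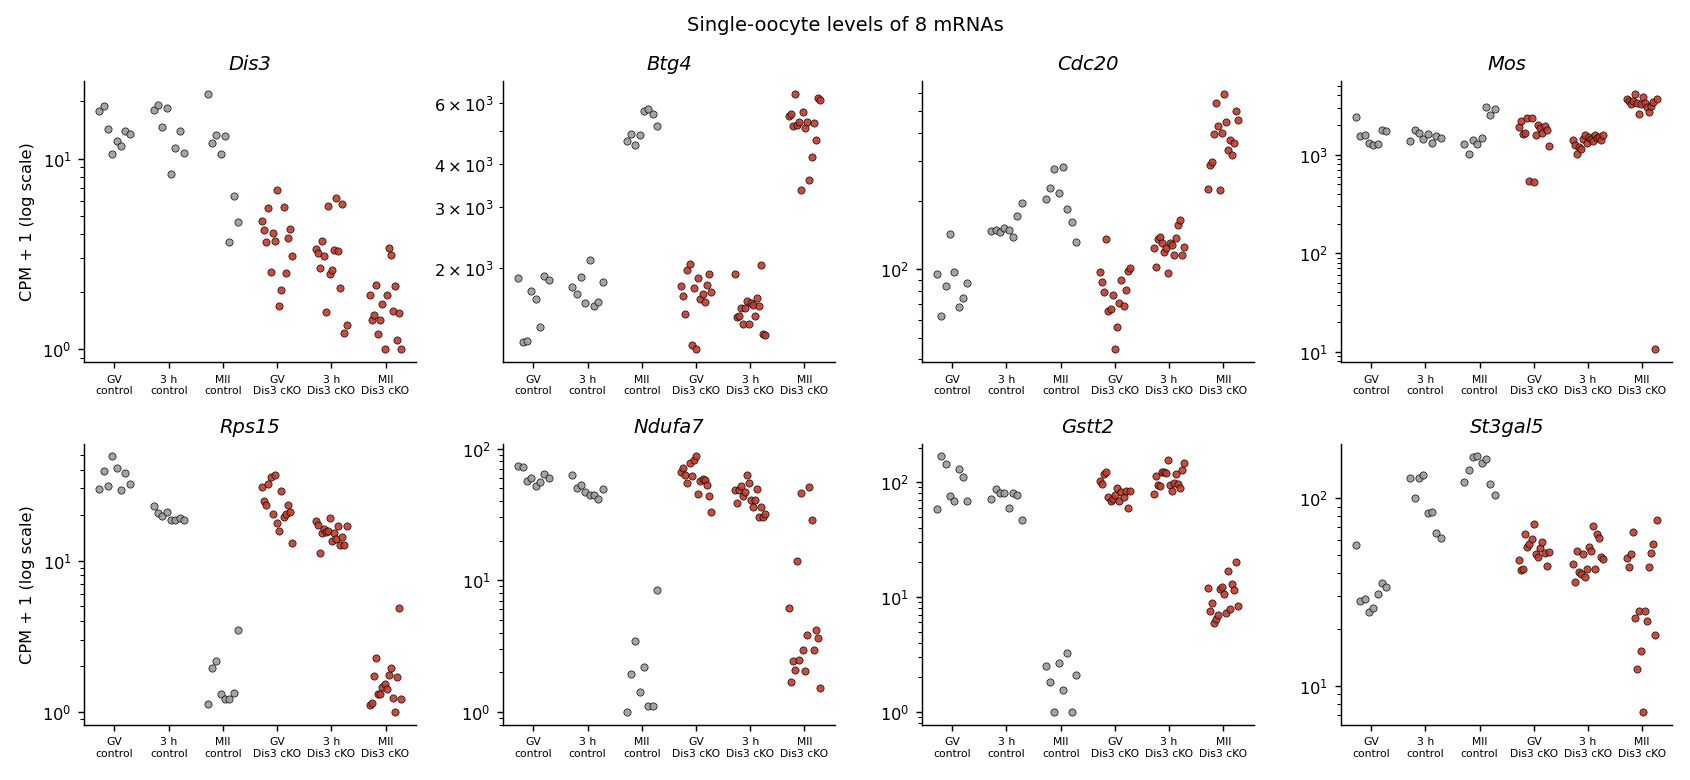
CPM + 1 on a log axis for 8 mRNAs in single oocytes of the 6 poly(A) groups (grey, control; red, Dis3 cKO). Gstt2 is higher in all 16 Dis3 cKO eggs than in the 8 control eggs, St3gal5 is lower in all 16, and egg 15 is the lone low point for Mos.

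More genes changed between 3 h and MII than between GV and 3 h. The 3 h oocytes were cultured after dissection and the MII eggs were ovulated in hormone-treated females. Stage and origin therefore cannot be told apart in the second step, as in the whole comparison of MII with GV. Between GV and 3 h in the knockout, 3009 genes changed (17.3%), 1291 up (7.42%) and 1718 down (9.88%), and between 3 h and MII 11865 did (68.2%), 4694 up (27%) and 7171 down (41.2%). Per ERCC count the first step had 6269 genes up and 165 down, which reverses its split, and the second had 106 up and 15788 down. Of the 4313 genes that rose from GV to MII, 433 (10.0%) had already risen at 3 h, 662 had fallen at 3 h, and 3720 (86.3%) rose between 3 h and MII. Of the 6694 that fell, 556 (8.31%) had fallen at 3 h, 475 had risen at 3 h, and 5924 (88.5%) fell later. These steps share libraries with the whole comparison. Cdc20 had already risen at 3 h (0.66), Tmem128 had fallen first (-0.81) and then rose by 2.92, and Mrpl12 changed by -0.02 in the first step and by -4.92 in the second.

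Individual eggs differed in how much of the control change they covered. Each library was placed on the line from the control GV mean (0) to the control MII mean (1), over 9278 genes. Dis3 cKO GV oocytes lay at 0.00337 to 0.0800 and control eggs at 0.926 to 1.04. The 16 Dis3 cKO eggs lay at 0.468 to 0.897 (median 0.840), so that none reached the lowest control egg; 14 of them were at 0.786 or above, and eggs 7 and 11 were at 0.468 and 0.57. The position is a description chosen after the data were seen, and control libraries define its ends. Eggs 7 and 11 had the highest Cdk1 (58.3 and 34.0 CPM), Zp3 and Figla (26.1 and 15.8 CPM) and the lowest Btg4 (3364 and 3591 CPM) and Ccnb1 (775 and 682 CPM) of the group, and the lowest mitochondrially encoded shares (0.269% and 0.296%). Their gene counts per ERCC count, 81.0 and 73.7, were the highest of the 16. Egg 12 resembled them for a few genes, with 27.5 CPM of the complex I subunit Ndufa7 where the median egg had 2.29 CPM.

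**Figure D5:**
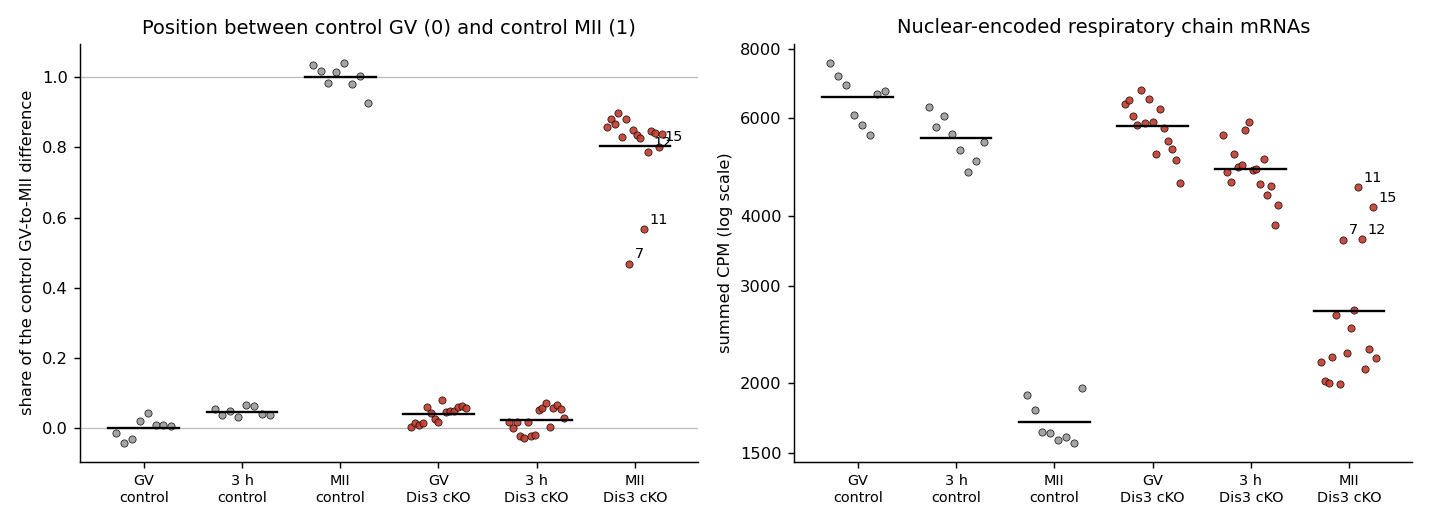
Left: share of the control GV-to-MII difference covered by each library (0, control GV mean; 1, control MII mean). Right: summed CPM of 75 nuclear-encoded respiratory chain mRNAs on a log axis; points are oocytes and bars means. Eggs 7 and 11 stand apart on the left, and eggs 7, 11, 12 and 15 are highest among Dis3 cKO eggs on the right.

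Egg 15 differed in another way. Among 6087 genes with a median of at least 20 CPM in the group, 144 were more than 10 times lower than in the lowest other egg, and in each of the other 15 eggs at most 1 gene was. The messages low in egg 15 included abundant oocyte mRNAs. Gdf9 was at 296 CPM against 3665 or more in the others, and Plat, tissue plasminogen activator, at 84.4 against 4472 or more. Lamb1 was at 71.9 against 2529, Bub1b, a spindle checkpoint kinase, at 106 against 1618, and Lbr, the lamin B receptor, at 4.67 against 956. Btg4 (6210 CPM) and Ccnb1 (1250 CPM) were within the range of the other eggs, and Prdx2, a peroxiredoxin, was at 2186 CPM where the others had at most 204. These genes were chosen after their values were seen. This egg also had the lowest gene counts per ERCC count and the highest mitochondrially encoded share (2.25%). Without it the counts were 11261 for the knockout's maturation change and 2685 for the difference from controls.

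Some genes were on or off in runs of consecutive title numbers within a stage. Among knockout eggs, Pxdn, which encodes an extracellular matrix peroxidase, was at 0 in eggs 5 to 11 and at 19.8 to 225 CPM in the other 9. Pnpla3, a lipase gene, showed the reverse, at 118 to 144 CPM in eggs 5 to 11 and below 3 CPM in the others. Arid5b was above 20 CPM in eggs 1 to 11 and below 3 CPM in eggs 12 to 16, and Cdc5l, a splicing factor, was at 0.639 to 3.61 CPM in eggs 1 to 4 and at 71.5 CPM or more in eggs 5 to 16. St3gal5 was lower in eggs 5 to 11 than in the others except egg 15. Control eggs split between numbers 1 to 5 and 6 to 8: Gpat3 was above 20 CPM in the former and below 3 CPM in the latter, and Ptpro showed the reverse. Mos was at 1008 to 1466 CPM in control eggs 1 to 5 and at 2560 to 3029 CPM in eggs 6 to 8, and Dis3 at 9.53 to 20.9 and at 2.67 to 5.39 CPM. These control eggs enter each difference between genotypes. The labels do not say which numbers share a female. The sums of 4 title numbers do not follow these runs, since control numbers 5 to 8 and knockout numbers 9 to 12 hold both states, and the part of the runs in the results above was not tested.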

How the data were processed

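Counts per gene were deposited by the authors as 1 file per oocyte, with ERCC counts in a separate file. The submitters' processing notes name cutadapt 2.5, STAR 2.7.2a, SAMtools 1.9, HTSeq 0.9.1 and the mouse build mm10; the annotation release and the use of strand are not given in the sources used here, so reads of overlapping or near-identical genes could be shared. The files held 55573 gene IDs, 92 ERCC species and 0 rows that name no gene; 99.7% of IDs had a symbol and 38633 a biotype, from tables that include RefSeq GRCm38.p6. No 2 libraries were identical.

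All 71 poly(A) libraries entered 1 edgeR 4.0.16 fit in R 4.3.3 (6 groups, TMM, filterByExpr, quasi-likelihood test, Benjamini-Hochberg adjustment over 17389 genes, threshold 0.05; SE is the log2 change over the square root of F). CPM use TMM-scaled totals of the genes that passed the filter. ERCC scaling used ERCC totals as library sizes. For ratios and shares, 2-sided permutation tests were run on log2 values. The code was tested on simulated counts. Alternatives included DESeq2 1.42.0, ERCC scaling, no filter, subsets of libraries and a replicate block; leaving out eggs 7 and 11, GV oocytes 6 and 8 or control GV oocyte 1, and summing title numbers, were chosen after seeing the data.

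The named genes, leaving out Gm, Rik and LOC names, were the 10 most changed in each direction with an adjusted p below 0.05, non-overlapping groups and at least 20 CPM in the higher group, up to 5 such rises per ERCC count (only Manba met this), the 5 largest differences in each direction with at least 20 CPM in a group and an SD of at most 0.6 of the mean in groups at that level, and Dis3 and Exosc10; other genes belong to 21 lists of 554 symbols. Members, lists and rules were chosen with earlier results of these data known. Gene counts cover reads without molecular identifiers, and depth limits the precision for the rarest mRNAs. RiboMinus and CUT&Tag samples were not used here.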

Additional observations from a re-analysis of the deposited data

Results flagged for a closer look

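Several values in the control groups of 8 lay far from the other libraries by Dixon's criterion, and 5 of the 6 were in control GV oocyte 1. In that oocyte Mt1 was lowest at 0.1039 CPM, Thrsp was lowest at 0.0 CPM, Exosc10 was lowest at 49.13 CPM, St3gal5 was highest at 55.37 CPM and Ptprd was highest at 13.09 CPM. The sixth was Mt1 in control MII egg 3, the highest at 1.652 CPM. Such values were looked for in 30 sets of 8 values, each a measure in the GV or the MII controls, and 6 sets had one. The criterion is set for about 5% by chance in a single set. The sets share libraries, and many of the measures were genes chosen for large genotype differences in these data. The 5% is therefore no measure of what chance gives here.

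The maturation change differed between Dis3 cKO and control oocytes, by a test of the difference itself, for 2287 genes, for gene counts per ERCC count (0.58), for the lncRNA share (-0.35) and for the mitochondrially encoded share (-1.01). The lncRNA difference turned to 0.23 per ERCC count (permutation p = 0.319). The mitochondrial difference no longer passed per ERCC count (permutation p = 0.216), with group medians (p = 0.172) or without eggs 7 and 11 (p = 0.0582). Among named genes the log2 difference was positive in Mt1 (6.50), Thrsp (5.45), Fmo6 (3.90), Gstt2 (3.55), Hint3 (3.37), Atp5o (1.17), Obox2 (1.03) and Cdc20 (1.00). It was negative in Rassf4 (-6.45), St3gal5 (-2.69), Ptprd (-2.38), Flrt3 (-2.33) and Frk (-2.18). Apart from Atp5o, Obox2 and Cdc20, these genes met the naming rule for large differences, so their place here follows from that rule. Atp5o was 0.59 without eggs 7 and 11 (edgeR adjusted p = 0.22), and 1.10 without control GV oocyte 1 (adjusted p = 0.055).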

How the results depend on the processing

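With ERCC scaling, 227 genes rose and 14311 fell in the knockout, 15275 changed in controls (58 up, 15217 down), 6434 changed between GV and 3 h in the knockout, and the change differed between genotypes for 5237 genes (5116 positive, 121 negative). Exosc10 turned to -0.51. The difference between genotypes was called for 1408 genes with the GV and MII groups alone (956 positive) and for 335 with counts summed over 4 title numbers (296 positive, 39 negative), and DESeq2 called 1012 negative differences where edgeR called 674. The lncRNA difference turned to 0.23 per ERCC count. The mitochondrially encoded share changed by -0.16 per ERCC count and by 0.67 in title numbers 1 to 8 alone (permutation p = 0.0673), and its difference between genotypes was -0.44 per ERCC count, -0.73 with group medians and -0.84 without eggs 7 and 11. The cause of these shifts was not tested. Of 438 values of named genes under the alternatives, 420 kept their direction and side of the threshold, 17 lost the call and 1 turned. Apart from Dis3 and Exosc10, these genes were chosen for large changes or differences in these same data. Their stability was therefore largely set by that choice and says little about other genes. The counts also pool maturation changes with genotype differences, and lost calls among the differences, such as Fmo6 and Flrt3, are given above. Title numbers did not pair the libraries: same-numbered Dis3 cKO oocytes correlated at -0.119 to 0.106 over 15 pairs, with 0 closest to its own number. Same-numbered control oocytes correlated at -0.037 to 0.124 over 8 pairs, with 2 closest to their own number. With the replicate block 10907 genes changed in the knockout and 10075 in controls, and 1757 differed between them.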
